A study of Mus musculus with 8 samples.

Results

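The comparison describes hearts that had not been overloaded: left ventricles of sham-operated male C57BL/6N mice, 8 weeks old when the study began, collected 4 weeks after the operation. The SFA group ate a low fat diet, and in the diet of the SFA-EAA group free essential amino acids took the place of 93.5% of the casein. Selection by operation and diet label gave 4 of the 8 polyadenylated RNA libraries of the series, 2 per diet. The labels give no transgene or mutation. The other 4 libraries came from mice on the same diets after transverse aortic constriction (TAC), in which a band around the aorta puts the left ventricle under pressure. Of 49671 listed genes, 16432 reached 1 in 2 or more of the 8 libraries and were tested. Whether both libraries of a group are from different mice is not stated in the labels, and p-values then reflect only the spread between these samples, which may be technical.

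Essential amino acids cannot be made by the animal, and among them the branched-chain amino acids leucine, isoleucine and valine are broken down largely outside the liver, with heart and skeletal muscle as major sites. In heart mitochondria a transaminase (Bcat2) removes their nitrogen, a dehydrogenase complex (Bckdha, Bckdhb, Dbt) commits the ketoacids to oxidation, and the kinase Bckdk and the phosphatase Ppm1k switch that complex off and on. Leucine and other amino acids also activate the kinase complex mTORC1 at the lysosome, while a shortage of amino acids is known to raise the transcription factor Atf4 and its targets.

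Values in the deposited table are normalized signals per gene, not counts. They summed to between 5739729 and 6251371 in the sham libraries. Between 14202 and 15274 genes were at 1 or above. Mitochondrially encoded genes held 29.2% and 30.3% of the total in the SFA hearts and 37.3% and 34.7% in the SFA-EAA hearts. Heart muscle transcripts were abundant in every sham library, with the alpha-myosin gene Myh6 between 61540 and 107800. The libraries labelled TAC SFA-EAA were each closer to a sham library than to one another. The rank correlation of replicate 1 was 0.976 with sham SFA replicate 2 and 0.922 with the other TAC SFA-EAA library. That of replicate 2 was highest, at 0.967, with sham SFA-EAA replicate 1. The 4 TAC libraries enter the sham comparison through the estimate of spread and through the choice of genes tested.

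Base composition separated the diets in sham hearts. Across 8016 genes with a mean of at least 50, which are not independent replicates, a gene's deviation from its mean rose with the GC content of its longest transcript in both SFA libraries (Spearman rho 0.55 and 0.58) and fell with it in both SFA-EAA libraries (rho -0.66 and -0.45). The log2 fold change between the diets, SFA-EAA minus SFA on the log2(value + 1) scale, therefore ran with GC content at rho -0.76. Its median was 0.36 among the tenth of genes poorest in GC and -0.62 among the tenth richest in GC. Diet and this trend cannot be told apart in 4 libraries, and the list counts and the genes that lead the results below are given both as deposited and after removal of each library's own trend with GC content ("GC-corrected"). After that correction the rank correlation was -0.01, and the median over all genes was 0.00 against -0.01 as deposited.

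The coding sequences of 2 genes show what the trend separates, and each is represented by the 90 bases at the middle of the coding part of its longest transcript, from GENCODE M21 on GRCm38. Nampt, which makes a precursor of the cofactor NAD, has a transcript with 40.31% GC, the lowest of the genes described first below. Tmem132a, a transmembrane protein gene, has 61.93%, the highest of them. The stretches run from coding base 691 to 780 of 1473 in Nampt (47.8% GC) and from 985 to 1074 of 2061 in Tmem132a (61.1% GC), all in lower case.
Nampt: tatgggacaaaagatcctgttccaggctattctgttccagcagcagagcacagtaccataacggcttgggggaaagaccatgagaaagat
Tmem132a: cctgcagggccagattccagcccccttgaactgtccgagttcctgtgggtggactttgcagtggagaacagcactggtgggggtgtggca
Nampt (chromosome 12, 32820335 to 32853369) stood at 888.6 and 936.5 in the SFA hearts and at 1481 and 1393 in the SFA-EAA hearts, 1.57-fold higher as deposited and 1.24-fold higher after the GC correction. Tmem132a (chromosome 19, 10857822 to 10869940) stood at 80.0 and 75.1 under SFA and at 17.2 and 25.6 under SFA-EAA, 3.57-fold lower as deposited and with a GC-corrected log2 fold change of -1.0 in place of -1.84. The libraries of the diets did not overlap in either gene, and in both the difference was smaller after the correction.

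**Figure D1:**
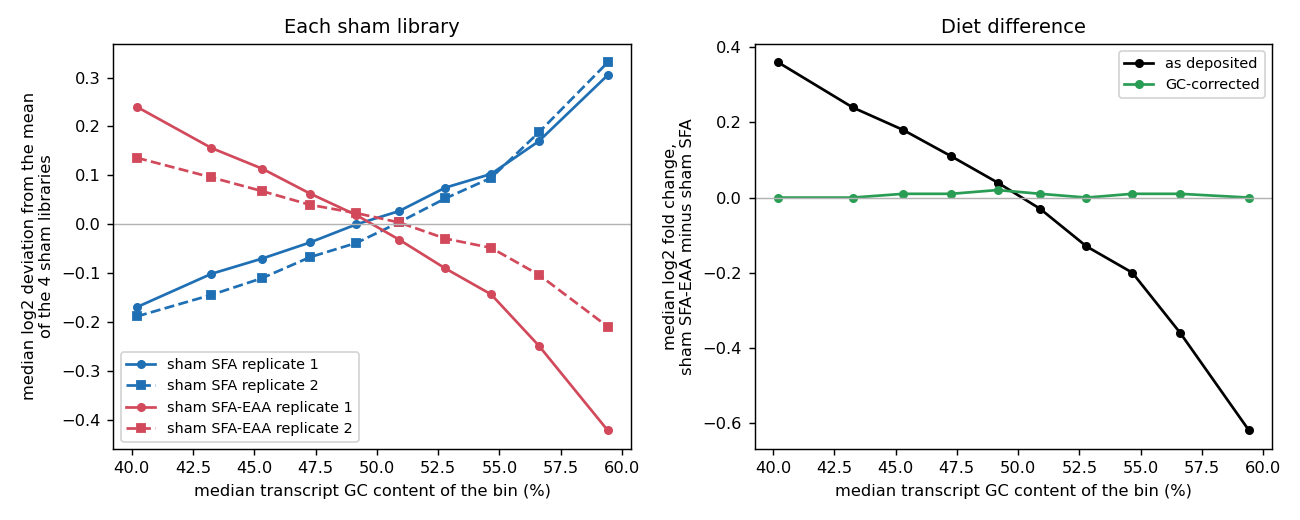
Left: deviation of each sham library from the mean of the 4 (vertical axis, bin median, log2 scale) against the median transcript GC content, in percent, of 10 bins of genes (horizontal axis), 1 line per library. Right: median log2 fold change between the diets in the same bins, falling from 0.36 to -0.62 as deposited (black) and lying near 0 after the GC correction (green).

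No single gene passed the test between the diets as deposited. Limma called 0 of 16432 genes at an adjusted p under 0.05 (0.0% as deposited and 0.0% after the GC correction), with 2437 genes (14.8%) and 1684 genes (10.2%) at an unadjusted p under 0.05. The smallest adjusted p was 0.231 as deposited and 0.056 after the GC correction. With a further correction for transcript length, 7 genes passed (0.0426%), all at an adjusted p of 0.0402. Of these, Tfdp2, Xdh, Foxo3, Zbtb16, Plin4 and Csdc2 rose under SFA-EAA (0.0365% of genes tested) and H2-Ab1 fell (0.00609%). As deposited, both SFA-EAA libraries lay above both SFA libraries in 27.6% of all genes and below both in 27.6%. After the GC correction these shares were 24.8% and 21.0%, and 18.1% and 16.2% of genes kept their side in both versions. Weighting libraries by their quality gave 591 calls (3.6%), 190 higher (1.16%) and 401 lower (2.44%), and leaving out TAC SFA-EAA replicate 1 or 2 gave 430 and 466, so the number called rests on how these libraries enter the spread.

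The genes with the clearest higher values in the SFA-EAA hearts encode a cell cycle partner, nuclear regulators of fasting and stress, and enzymes of purine and xenobiotic metabolism. Tfdp2 (ENSMUSG00000032411, chromosome 9, 96196275 to 96323646, GRCm38), a dimerization partner of E2F transcription factors, stood at 312.7 and 290.4 under SFA and at 584.0 and 584.5 under SFA-EAA. It was 1.94-fold higher as deposited (log2 fold change 0.95, SE 0.11, limma adjusted p = 0.231) and 1.73-fold higher after the GC correction (adjusted p = 0.056). Zbtb16, a zinc finger transcription factor known to be induced by glucocorticoids (ENSMUSG00000066687, chromosome 9, 48654297 to 48836222), stood at 106.5 and 67.1 under SFA and at 294.7 and 381.2 under SFA-EAA. Its values were the most unlike between the diets of the 12 higher genes described here, 3.93-fold higher (log2 fold change 1.97, SE 0.26, adjusted p = 0.267) and 4.38-fold higher after the GC correction (adjusted p = 0.056).

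Foxo3, a transcription factor held in check by insulin signalling (ENSMUSG00000048756, chromosome 10, 42181841 to 42276755), stood at 448.6 and 456.5 in the SFA hearts and at 678.3 and 689.2 in the SFA-EAA hearts. The libraries of a diet differed by little, and the log2 fold change was 0.59 (SE 0.11, adjusted p = 0.267) and 0.73 after the GC correction (adjusted p = 0.056). Xdh, xanthine dehydrogenase, which makes uric acid from purines (ENSMUSG00000024066, chromosome 17, 73883908 to 73950182), was at 302.1 and 302.2 against 488.2 and 567.9, a log2 fold change of 0.80 as deposited and 0.89 after the GC correction (adjusted p = 0.056). Plin4, which coats lipid droplets (ENSMUSG00000002831, chromosome 17, 56100591 to 56109803), was at 706.7 and 725.3 against 965.9 and 973.0. Its log2 fold change was 0.44 as deposited and 0.74 after the GC correction (adjusted p = 0.0662). Csdc2, a cold shock domain RNA-binding protein gene (ENSMUSG00000042109, chromosome 15, 81936759 to 81950941), was at 283.5 and 277.7 against 334.4 and 348.1. It rests on the correction most: its log2 fold change went from 0.28 (adjusted p = 0.543) to 0.82 (adjusted p = 0.056), with GC-corrected values of 242.2 and 232.1 under SFA and 438.9 and 398.8 under SFA-EAA.

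Other genes near the top of this ranking did not pass in any of the 3 versions. Fmo2, a flavin monooxygenase, stood at 129.3 and 153.9 under SFA and at 330.6 and 264.3 under SFA-EAA (log2 fold change 1.06, 0.84 after the GC correction, where adjusted p = 0.206). Sult1a1, a phenol sulfotransferase, was at 168.4 and 148.3 against 299.9 and 298.1 (0.92, GC-corrected 0.84), and Timp4, an inhibitor of matrix proteases made in heart, at 264.4 and 240.8 against 430.3 and 431.0 (0.77 and 0.70). The diets did not overlap in these genes, nor in Ppip5k2, a kinase of inositol pyrophosphates, at 421.4 and 407.1 against 707.1 and 730.1 (0.79 and 0.54). The zinc finger gene Zfp617 was at 57.6 and 52.1 against 105.7 and 112.2 (0.98 and 0.67). With library weights, each of the 12 genes described here except Csdc2 had an adjusted p between 0.0264 and 0.0425.

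**Figure D2:**
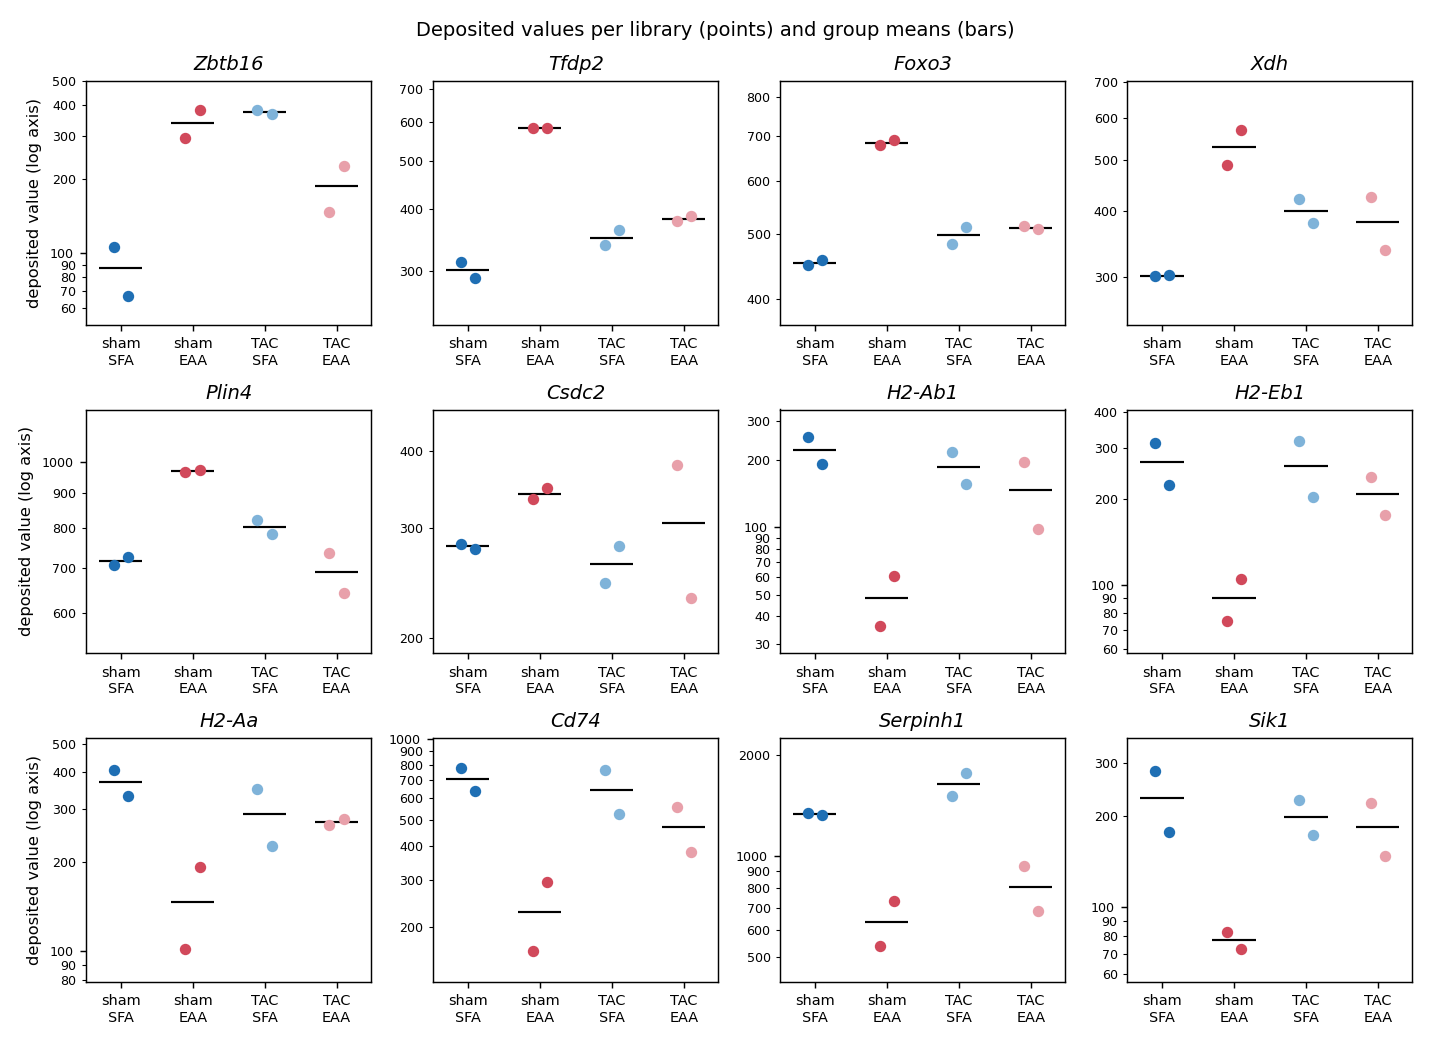
Deposited value per library (vertical log axis) of 12 genes in sham and TAC hearts under SFA and SFA-EAA (EAA), with 1 point per library and a bar at each group mean. In the sham groups the SFA and SFA-EAA points are apart in all 12 panels; Zbtb16 stands at 67.1 and 106.5 under SFA and at 294.7 and 381.2 under SFA-EAA.

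Of the 10 lower genes with the smallest p-values, 3 (H2-Ab1, H2-Eb1 and Cd74) belong to antigen presentation by MHC class II. The class II molecules display peptides to helper T cells on macrophages, dendritic cells and B cells, and Cd74 is the chain that guides their assembly. With the class II alpha chain gene H2-Aa they make 4 genes, and 2 of the 4 matched the table of RefSeq promoters (GRCm38.p6) used here. Shown are the 100 bases before their starts, since class II promoters are known to hold a CCAAT-type box that is read together with neighbouring elements by a shared regulator. H2-Aa is at chr17:34287824-34287923 on the minus strand and H2-Eb1 at chr17:34305767-34305866 on the plus strand. Capitals mark every match to CCAAT or to ATTGG, which is the same motif on the other strand.
H2-Aa: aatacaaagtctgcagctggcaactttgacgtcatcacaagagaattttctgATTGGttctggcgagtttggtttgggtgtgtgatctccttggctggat
H2-Eb1: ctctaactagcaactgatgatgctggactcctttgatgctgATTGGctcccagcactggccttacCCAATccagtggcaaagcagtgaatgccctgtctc
The H2-Aa window held 1 match and the H2-Eb1 window 2, and 18.9% of 32851 windows of the same length before RefSeq starts held at least 1. A match in these letters is a description of the sequence only.

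H2-Ab1, a class II beta chain (ENSMUSG00000073421, chromosome 17, 34263209 to 34269418), stood at 255.5 and 191.7 in the SFA hearts and at 36.1 and 60.3 in the SFA-EAA hearts. It was 4.66-fold lower (log2 fold change -2.22, SE 0.35, limma adjusted p = 0.267) and 3.47-fold lower after the GC correction (adjusted p = 0.0848). H2-Eb1, another beta chain nearby (34305877 to 34316199), was at 313.2 and 222.8 against 74.7 and 105.0, 2.96-fold lower. The alpha chain gene H2-Aa, which lies between them and was added after its values had been seen, was at 405.9 and 333.9 against 101.4 and 191.2, 2.63-fold lower. Cd74, on chromosome 18, was at 775.0 and 639.4 against 163.0 and 293.6, 3.21-fold lower. All 4 genes were lower in both SFA-EAA libraries as deposited and after the GC correction, where their log2 fold changes lay between -1.80 and -1.31, and of the 4 only H2-Ab1 passed once length was corrected too. In bulk tissue, fewer cells of a type and less RNA per cell cannot be told apart.

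Markers of macrophages and of blood moved in part with these genes. The 4 class II genes summed to 1749.6 and 1387.8 in the SFA hearts and to 375.2 and 650.0 in the SFA-EAA hearts. The other 18 macrophage markers summed to 2026.1 and 1511.5 under SFA and to 1477.6 and 1617.5 under SFA-EAA, so that these ranges overlapped. As deposited, 8 of the 18 were lower without overlap, 1 was higher and 9 overlapped, and after the GC correction 5 were lower; none was at 0 in all 4 libraries. Among all genes, 27.6% lay on each side as deposited, and 21.0% were lower after the correction. Over all 22 macrophage markers the GC-corrected median was -0.36, and -0.13 without sham SFA replicate 1. C1qa, a complement gene of resident macrophages, was at 232.6 and 177.7 against 88.8 and 138.2 in the same order (log2 fold change -0.87, -0.25 after the GC correction), and Retnla, a secreted resistin-like protein, at 37.0 and 17.3 against 9.88 and 9.61. Lyve1, a hyaluronan receptor of lymphatic vessels and some resident macrophages, went the other way at 73.8 and 63.9 against 124.2 and 159.0. Of general macrophage genes, named after their values had been seen, Lyz2, Mrc1 and Cd163 overlapped between the diets. Csf1r, the receptor for macrophage colony-stimulating factor, did not, at 208 and 167 against 111 and 139 (-0.58, GC-corrected -0.38), nor did the lysosomal gene Cd68 at 29.3 and 23.7 against 18.2 and 16.7 (-0.57 and -0.45) or the complement gene C1qc (-0.78 and -0.34). Lymphocyte and granulocyte markers were low, with sums of 65.9 and 49.4 under SFA and 44.8 and 44.9 under SFA-EAA over 15 tested genes. Of 9 tested erythroid genes, 7 were lower without overlap in both versions and 0 higher, against 16.2% and 18.1% of all genes. The alpha-globin gene Hba-a1 was at 489.2 and 504.4 against 171.5 and 197.2. The part of these cells in the class II result was not tested.

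Further genes with lower values belonged to collagen handling and cytokine signalling. Serpinh1, a chaperone for collagen folding (chromosome 7, 99345376 to 99353239), stood at 1343 and 1322 under SFA and at 536.6 and 731.9 under SFA-EAA, 2.12-fold lower, with a GC-corrected log2 fold change of -0.73 (adjusted p = 0.0848). Sik1, a salt-inducible kinase, was at 281.7 and 176.9 against 82.8 and 72.8, with log2 fold changes of -1.51 and, GC-corrected, -1.28. Csf2rb, a common receptor chain of the cytokines IL-3, IL-5 and GM-CSF, was low throughout, at 13.1 and 10.1 against 1.4 and 0.141. Much of the difference of 3 GC-rich genes went with the correction: log2 fold changes went from -1.34 to -0.52 for the collagen gene Col5a3, from -1.29 to -0.57 for Fscn1, which bundles actin, and from -0.73 to -0.38 for Tnfaip2, an endothelial gene induced by TNF.

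Genes of branched-chain amino acid breakdown were mostly higher under SFA-EAA by small amounts. None of the 33 was called. As deposited, 21 were higher without overlap and 5 lower, against 27.6% of all genes in each direction, and the median log2 fold change was 0.20. After the GC correction 17 were higher and 3 (Bckdk, Auh and the cytosolic transaminase Bcat1) lower, with a median of 0.12 (0.08 without sham SFA replicate 1). After the correction 24.8% of all genes were higher and 21.0% lower. Of the dehydrogenase complex, Dbt was at 349.5 and 293.4 against 448.4 and 467.4 (log2 fold change 0.51, GC-corrected 0.24) and Bckdhb at 271.9 and 270.6 against 327.6 and 356.5 (0.33 and 0.35). The alpha subunit Bckdha, a GC-rich gene, was lower as deposited, at 1838 and 2195 against 1254 and 1644, and its log2 fold change of -0.48 became -0.01 after the GC correction. The subunits of the complex lay in opposite directions as deposited, while after the correction Bckdha overlapped between the diets.

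The regulators of the complex differed little after the correction. The activating phosphatase gene Ppm1k was at 447.4 and 532.3 against 626.8 and 639.0, a log2 fold change of 0.37 that became 0.01 (adjusted p = 0.992). Its inhibiting kinase gene Bckdk was at 535.9 and 559.5 against 403.4 and 481.6, with log2 fold changes of -0.31 and -0.20 (GC-corrected adjusted p = 0.657). Bcat2, the first enzyme of the pathway, overlapped between the diets, and its log2 fold change of -0.10 turned to 0.09 with the GC correction.

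Further down the pathway the higher values were steadier. Aldh6a1, which acts in valine breakdown, stood at 1148 and 1140 under SFA and at 1566 and 1734 under SFA-EAA (log2 fold change 0.53, GC-corrected 0.28, adjusted p = 0.345). Hibch, another enzyme of the valine branch, was at 522.2 and 496.2 against 752.8 and 716.3 (0.53 and 0.24), and Acadsb, an acyl-CoA dehydrogenase of the isoleucine branch, at 779.8 and 720.1 against 1079 and 1014 (0.48 and 0.23). Hsd17b10, a dehydrogenase in isoleucine breakdown, was at 654.7 and 693.5 against 832.7 and 829.2, and after the correction it had a log2 fold change of 0.38 (adjusted p = 0.266), the largest of the list. Mcee, an epimerase on the way to succinyl-CoA, was at 385.5 and 383.4 against 503.1 and 476.4 (0.35 and 0.36). In all 5 the diets did not overlap in either version, and the differences did not pass.

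Enzymes that break down other amino acids gave a like picture, with 0 of 41 tested genes called, 18 higher without overlap and 4 lower as deposited, and 20 and 1 after the GC correction (medians 0.09 and 0.15, the latter 0.08 without sham SFA replicate 2). Over all genes the shares were 27.6% on each side as deposited, and 24.8% higher and 21.0% lower after the correction. Kyat3, a transaminase of kynurenine and glutamine, was at 194.6 and 187.2 against 258.5 and 269.4 (log2 fold change 0.47, GC-corrected 0.43). The methionine synthase gene Mtr was the 1 gene lower after the correction, at 385.2 and 273.2 against 226.1 and 262.1, and was named after its values had been seen. Cth, which makes cysteine, was low in all, at 1.4 and 8.3 against 15.3 and 15.0.

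Amino acid transporters lay around 0: of 28 tested, 1 was higher without overlap and 4 lower as deposited, 5 and 2 after the GC correction, and the medians were 0.03 and 0.04. For all genes the shares were 27.6% on each side as deposited, and 24.8% higher and 21.0% lower after the correction. Slc43a2, a carrier of leucine and other neutral amino acids, was at 126.6 and 119.3 against 80.5 and 78.5 (log2 fold change -0.62, GC-corrected -0.47, adjusted p = 0.336). Slc7a7, a carrier of cationic amino acids, was at 13.0 and 12.0 against 5.0 and 3.7. The large neutral amino acid carrier Slc7a5 overlapped between the diets at 32.9 and 20.9 against 26.3 and 20.1, and its log2 fold change of -0.19 turned to 0.15 with the GC correction. Its partner chain Slc3a2, at 196.3 and 177.9 against 167.1 and 136.5, overlapped after the correction only (-0.31, then -0.16).

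Genes of mTORC1 and amino acid sensing lay on both sides of 0, with 0 of 42 called. As deposited 12 were higher without overlap and 18 lower (median -0.11), against 27.6% of all genes on each side. After the GC correction 14 were higher and 10 lower (median -0.01), against 24.8% and 21.0% of all genes. Sesn1, a sestrin, which restrains mTORC1, stood at 659.5 and 665.7 under SFA and at 1004 and 1076 under SFA-EAA (log2 fold change 0.65 in both versions, GC-corrected adjusted p = 0.224). Fnip1, a partner of folliculin in amino acid sensing, was at 225.3 and 224.6 against 423.7 and 371.4 (0.82 and 0.41). On the lower side, Ddit4, another inhibitor of mTORC1, was at 698.6 and 436.6 against 208.6 and 195.2 (-1.45 and -0.97). Eif4ebp1, a repressor of translation and target of mTORC1, was at 293.3 and 304.5 against 202.6 and 214.9 (-0.52 and -0.57, GC-corrected adjusted p = 0.336). Among other inhibitors of mTORC1, named after their values had been seen, Sesn3 had higher values (0.44 and 0.26) and Akt1s1 lower ones (-1.07 and -0.23), so that inhibitors were found on both sides.

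The Atf4 branch of the stress response showed no common direction. Atf4 itself was at 425.1 and 407.3 against 416.8 and 431.8 (log2 fold change 0.03, GC-corrected 0.21, adjusted p = 0.483). Of 30 tested genes of this response and of serine and glycine synthesis, 5 were higher without overlap and 11 lower as deposited, and 9 and 6 after the GC correction, none called, with medians of -0.13 and -0.07 (0.04 and 0.11 without sham SFA replicate 1). Among all genes, 27.6% lay on each side as deposited, and 24.8% were higher and 21.0% lower after the correction. The asparagine synthetase gene Asns was at 10.4 and 9.2 against 12.2 and 9.6. Atf3, a stress transcription factor, was at 39.0 and 40.6 against 25.3 and 20.2 (log2 fold change -0.79, GC-corrected -0.69). Of 23 aminoacyl-tRNA synthetase genes, which load amino acids on tRNA, 9 were higher without overlap and 4 lower as deposited (median 0.05), and 8 and 3 after the GC correction (median 0.06). Nars, for asparagine, was higher at 413.0 and 375.0 against 475.4 and 486.6 (0.29 and 0.20). On the lower side Wars, for tryptophan, was at 232.8 and 269.7 against 159.4 and 191.1, and Tars, for threonine, at 172.1 and 164.2 against 132.4 and 134.8.

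**Figure D3:**
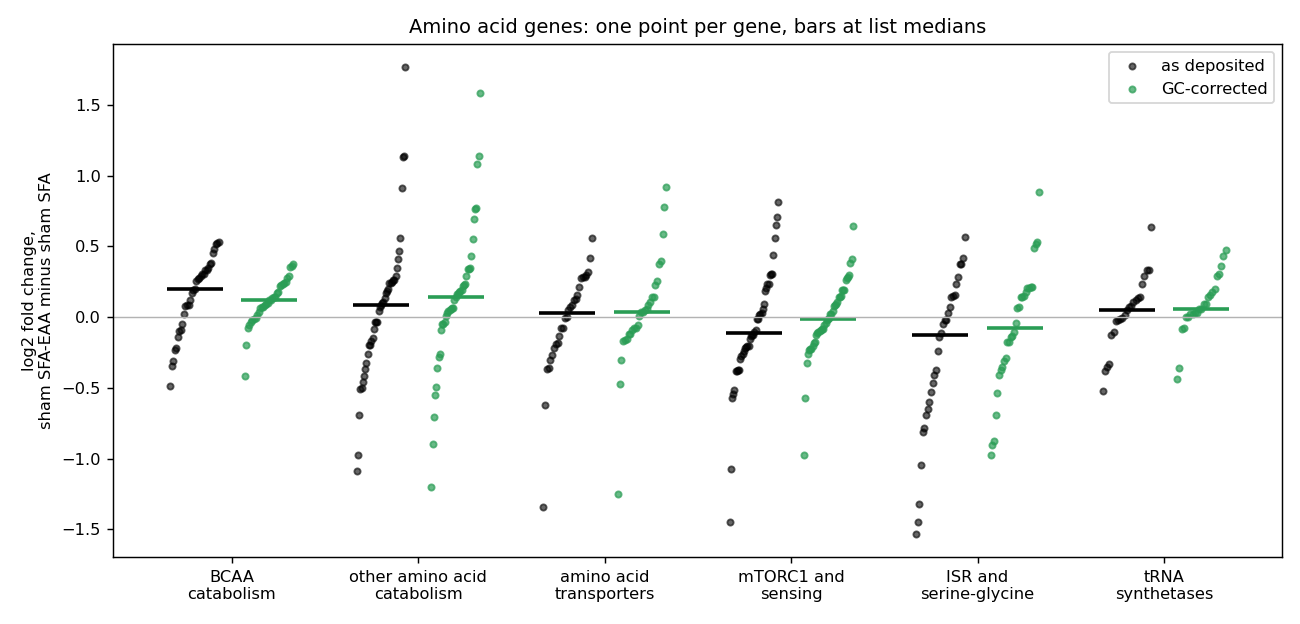
Log2 fold change between the diets in sham hearts (vertical axis) for each tested gene of 6 amino acid lists (horizontal axis), as deposited (black) and GC-corrected (green), with bars at list medians. Branched-chain catabolism has medians of 0.20 and 0.12, while the transporter list lies near 0.

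Fatty acid genes were higher in most cases, and more uniformly so after the GC correction. Of 40 genes of fatty acid uptake and oxidation, 22 were higher without overlap and 10 lower as deposited (median 0.13, or 0.06 without sham SFA-EAA replicate 2). As deposited 27.6% of all genes lay on each side. After the correction 29 were higher and 1, the carnitine palmitoyltransferase gene Cpt1b, lower (median 0.20), against 24.8% and 21.0% of all genes, with 0 called. Acot13, a mitochondrial acyl-CoA thioesterase, stood at 1301 and 1290 in the SFA hearts and at 1642 and 1726 in the SFA-EAA hearts (log2 fold change 0.38 in both versions, GC-corrected adjusted p = 0.235). Etfdh, which hands electrons from fatty acid and amino acid oxidation to the respiratory chain, was at 4021 and 4040 against 5195 and 5280, and Decr1, an enzyme for unsaturated fatty acids, at 2661 and 2764 against 3746 and 3582. Cd36, the main fatty acid uptake protein of heart muscle, was at 10040 and 9946 against 15710 and 13980, and its log2 fold change of 0.57 became 0.14 after the correction.

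Of genes that respond to fatty acids and fasting, Pdk4 and Ucp3 did not separate the diets. Pdk4, which slows glucose oxidation, was at 1314 and 997.6 against 1271 and 2576, and Ucp3, a mitochondrial carrier, at 128.0 and 146.9 against 125.9 and 253.9. In both the high value came from sham SFA-EAA replicate 2 alone. Without that library the log2 fold change of Ucp3 was -0.12 as deposited and that of Pdk4 was -0.05 with the GC correction.

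Respiratory chain genes depended on the version. Of 79 nuclear-encoded subunits 33 were higher and 31 lower without overlap as deposited (median 0.00), and 45 and 16 after the GC correction (median 0.09). Cox7b, a cytochrome oxidase subunit, was at 4121 and 4363 against 6866 and 5838 (log2 fold change 0.58, GC-corrected 0.30), and Ndufs4, a complex I subunit, at 1418 and 1433 against 2248 and 1972 (0.56 and 0.32). The 13 protein genes of the mitochondrial genome, which are poor in GC, had a median of 0.40 as deposited and of -0.03 after the correction (-0.28 without sham SFA replicate 1). Among them mt-Nd1 stood at 207600 and 215700 against 339500 and 276200, a log2 fold change of 0.53 that became 0.08, or -0.01 with length corrected too. Of 33 genes of the pyruvate dehydrogenase complex and tricarboxylic acid cycle, 18 were higher without overlap and 6 lower as deposited (median 0.15), and 20 and 1 after the GC correction (median 0.11). As deposited 27.6% of all genes lay on each side, and after the correction 24.8% were higher and 21.0% lower.

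Their regulators differed in sign. Ppargc1a, the coactivator PGC-1alpha that promotes mitochondrial biogenesis, was at 473.1 and 482.5 against 760.1 and 756.1 (log2 fold change 0.66, GC-corrected 0.37, adjusted p = 0.337). Esrra, the nuclear receptor that it coactivates, is GC-rich and was at 746.6 and 834.8 against 303.7 and 408.7 (log2 fold change -1.16, GC-corrected -0.32, adjusted p = 0.491). Cytosolic ribosomal protein genes, 79 in all, were nearly balanced as deposited, with 32 higher without overlap and 28 lower (median 0.02). After the correction 41 were higher and 16 lower (median 0.10, and 0.05 with length corrected too). Among all genes the shares were 27.6% on each side as deposited, and 24.8% higher and 21.0% lower after the correction. Ribosomal protein genes with the smallest p-values included Rps24 at 1407 and 1499 against 2272 and 1993 and Rpl39 at 361.2 and 398.2 against 575.5 and 565.6.

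Some lipid synthesis genes were lower, but the share of lower genes was close to that of all genes. Of 37 tested, 10 were lower without overlap and 4 higher as deposited (median -0.20), against 27.6% of all genes on each side. After the GC correction 10 were lower and 5 higher, against 21.0% and 24.8% of all genes. The median was then -0.12 (-0.01 without sham SFA replicate 1). Scd2, a fatty acid desaturase, was at 248.9 and 181.3 against 131.4 and 95.8 (log2 fold change -0.91, GC-corrected -0.93, adjusted p = 0.236). Srebf1, the master regulator of fatty acid synthesis, was at 201.1 and 227.5 against 94.1 and 107.8, and the fatty acid synthase gene Fasn at 215.9 and 131.8 against 78.3 and 85.5; their GC-corrected log2 fold changes were -0.56 and -0.57. Glycolytic and glucose uptake genes, 33 in number, had medians of -0.09 and 0.04. Pfkfb2, a heart isoform of the enzyme that sets the level of an activator of glycolysis, was at 134.2 and 131.1 against 198.0 and 186.2.

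**Figure D4:**
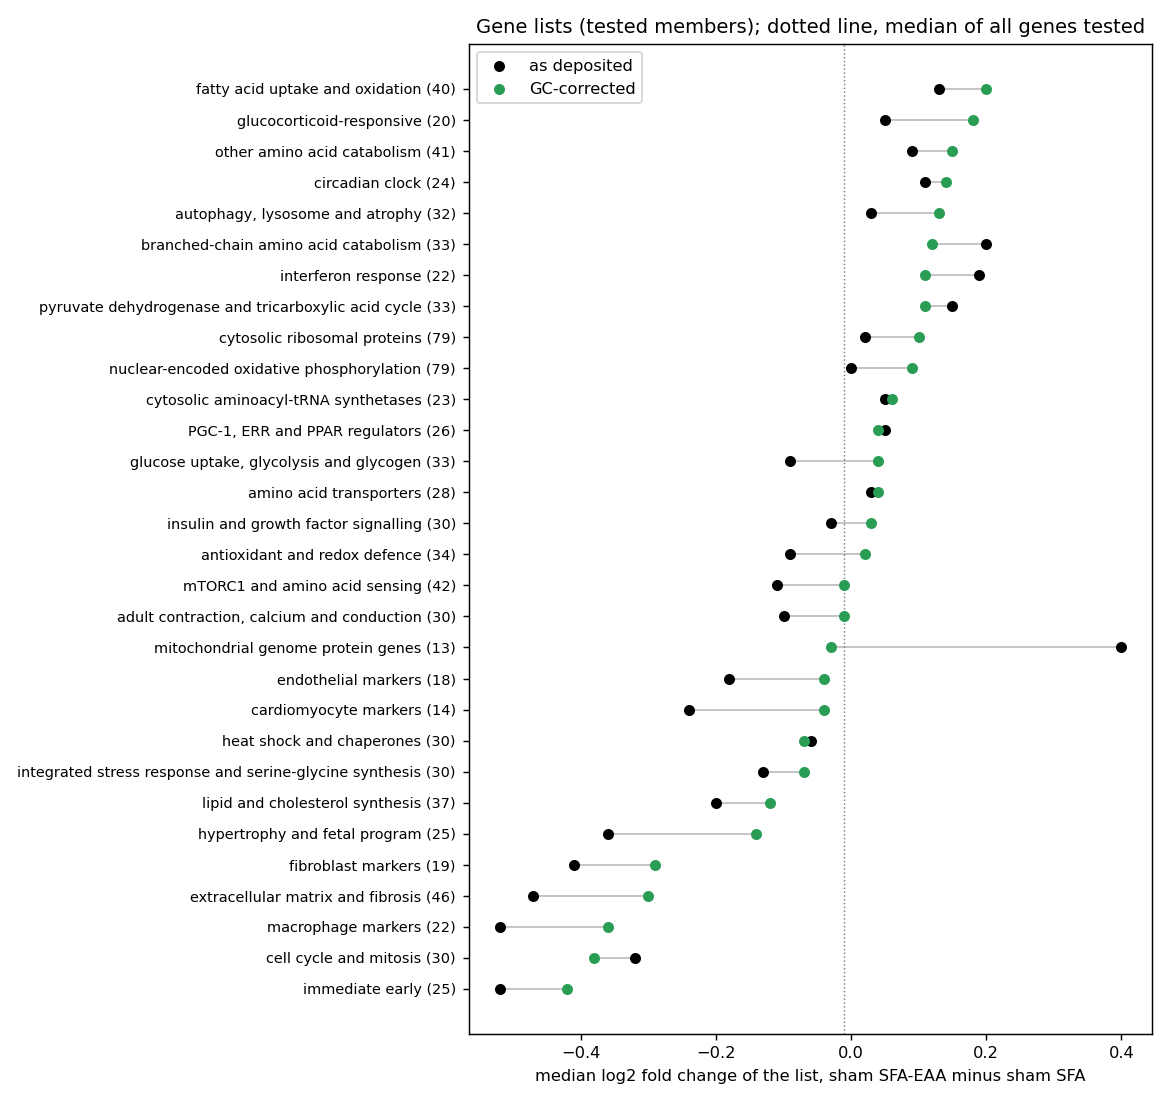
Median log2 fold change between the diets in sham hearts (horizontal axis) for each list of functional genes and 4 marker lists (vertical axis, number of tested genes in parentheses), as deposited (black) and GC-corrected (green). Among the lists drawn, fatty acid genes lie at the top (0.20 corrected) and immediate early genes at the bottom (-0.42 corrected); the mitochondrial genome genes move from 0.40 to -0.03.

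Among clock genes, the activator Arntl had lower values and several of its repressors higher ones. In the circadian clock, Arntl (BMAL1) drives transcription of repressors such as the Per and Nr1d genes, and its own transcript peaks when theirs is low. Arntl stood at 94.7 and 67.9 under SFA and at 28.5 and 44.7 under SFA-EAA, 2.21-fold lower (log2 fold change -1.15, GC-corrected -1.22, adjusted p = 0.206). Nr1d2, a repressor of Arntl, was at 341.8 and 467.0 against 775.4 and 691.7 (0.87 and 0.59), Ciart, another repressor, at 12.0 and 17.9 against 45.1 and 41.8 (1.50 and 1.60), and Tef, an output transcription factor, at 449.1 and 533.5 against 712.9 and 699.6 (0.53 and 0.66). Per2, named after its values had been seen, was at 29.4 and 29.9 against 49.1 and 53.5. In each of these 5 genes the diets did not overlap, while Dbp, an output gene, overlapped as deposited at 140.8 and 234.6 against 211.1 and 218.6 and was higher after the GC correction (log2 fold change 0.24, then 1.06). Per1, also named after its values had been seen, was lower without overlap as deposited, at 270.3 and 258.7 against 188.8 and 202.5. Its log2 fold change of -0.43 turned to 0.17 with the GC correction. Of all 24 clock genes, 9 were higher without overlap and 6 lower as deposited, and 11 and 5 after the correction. The shares of all genes were 27.6% on each side as deposited, and 24.8% higher and 21.0% lower after the correction. The labels used here give no hour of tissue collection.

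Glucocorticoid-responsive genes lay on both sides. Zbtb16 and Sult1a1 belong to this list of 20, and so does Fkbp5, a cochaperone of the glucocorticoid receptor, which stood at 165.3 and 107.5 under SFA and at 317.2 and 252.5 under SFA-EAA (log2 fold change 1.08, GC-corrected 1.15, adjusted p = 0.31). As deposited 8 of the 20 were higher without overlap and 8 lower (median 0.05), against 27.6% of all genes on each side. After the GC correction 9 were higher and 7 lower, Ddit4 among the latter (median 0.18), against 24.8% and 21.0%. Around Foxo3, the insulin signalling genes Pik3r1, a regulatory subunit of PI3 kinase, and Irs2, an insulin receptor adaptor, were on opposite sides. Pik3r1 was at 691.5 and 594.0 against 1042 and 949.6, and Irs2, named after its values had been seen, at 93.7 and 59.5 against 26.9 and 32.9. The list of 30 insulin and growth factor genes had medians of -0.03 and 0.03.

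Immediate early genes, which are induced within minutes of a stimulus, had the lowest corrected median of the lists of functional genes. Of 25, 17 were lower without overlap and 0 higher as deposited (median -0.52), and 17 and 1 after the GC correction (median -0.42), with 0 called. Over all genes 27.6% lay on each side as deposited, and 21.0% were lower and 24.8% higher after the correction. Leaving out any 1 sham library kept the corrected median of the list between -0.47 and -0.37. Nr4a1, an orphan nuclear receptor, stood at 185.4 and 119.2 in the SFA hearts and at 49.7 and 41.6 in the SFA-EAA hearts (log2 fold change -1.69, GC-corrected -1.29, adjusted p = 0.239). The AP-1 genes Jun and Junb, named after their values had been seen, were at 304.8 and 288.1 against 99.6 and 137.3 and at 50.5 and 51.2 against 7.40 and 10.5. Klf2, a flow-responsive endothelial factor, was at 322.1 and 338.8 against 130.7 and 111.1, and Ier2 at 62.6 and 73.5 against 20.6 and 25.7; with the GC correction their log2 fold changes went from -1.45 to -0.63 and from -1.52 to -0.78. The inducible heat shock gene Hspa1a was at 19.6 and 40.9 against 1.5 and 4.8 (log2 fold change -2.96, GC-corrected -2.49, adjusted p = 0.234). Hspa1a belongs to a separate list of 30 heat shock and chaperone genes, which lay on both sides. Of these, 13 were lower without overlap and 10 higher as deposited (median -0.06), and 9 and 8 after the GC correction (median -0.07).

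Extracellular matrix genes were lower in the SFA-EAA hearts, but 1 library carried much of the list. Of 46 genes, 24 were lower without overlap and 7 higher as deposited, and 17 and 5 after the GC correction, with medians of -0.47 and -0.30. Without sham SFA replicate 1 these medians were -0.19 and -0.06. The shares of all genes were 27.6% on each side as deposited, and 21.0% lower and 24.8% higher after the correction. The elastin cross-linker Loxl1 was at 223.9 and 193.5 against 60.7 and 59.2 (log2 fold change -1.78, GC-corrected -1.02, adjusted p = 0.191) and the collagen gene Col6a2 at 459.6 and 373.1 against 192.0 and 169.7. The fibrillar collagen genes Col1a1 and Col3a1, named after their values had been seen, were at 537.0 and 457.5 against 139.0 and 162.0 and at 1345 and 929.8 against 525.6 and 657.0. Going the other way, Lox, a collagen cross-linker, was at 17.0 and 16.4 against 37.1 and 27.3. Of 19 fibroblast markers 10 were lower without overlap and 2 higher as deposited (median -0.41), and 10 and 0 after the correction (median -0.29, or -0.13 without sham SFA replicate 1). In the cell cycle list Ccnd1, cyclin D1, was at 348.4 and 342.1 against 188.7 and 241.8, and the median of its 30 genes was -0.38 (-0.08 without sham SFA replicate 1).

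Sham SFA replicate 1 also differed from its partner in atrial genes. The atrial light chain gene Myl7 was at 621.3 and 35.8 in the 2 SFA libraries and at 43.0 and 2.7 in the SFA-EAA libraries, Myl4, its essential light chain counterpart, at 631.3 and 53.2 against 37.0 and 8.7, and Sln, the atrial calcium pump regulator sarcolipin, at 135.1 and 3.1 against 0.835 and 0.718. Among the sham libraries the high values stood in that 1 alone. Whether atrial tissue in it bears on the matrix and fibroblast values was not tested. Epicardial and mesothelial genes were low. In both versions 6 of 10 were higher under SFA-EAA without overlap and 1 lower, against 18.1% and 16.2% of all genes. Among the higher ones were Msln at 5.29 and 0 against 11.9 and 14.9 and Krt18 at 0 and 0.910 against 4.89 and 6.95.

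Of the load markers of heart muscle, Nppa, Nppb and Myh7 overlapped between the diets in sham hearts. Nppa, atrial natriuretic peptide, stood at 1300 and 1013 under SFA and at 1025 and 1046 under SFA-EAA, with log2 fold changes of -0.15 and, GC-corrected, 0.10 (SE 0.23). Nppb, the B-type peptide, was at 1022 and 1101 against 1122 and 942.4, with -0.05 and -0.11 (SE 0.14), and 0.01 when libraries were scaled without mitochondrial genes. Myh7, the slow beta-myosin, was at 569.5 and 1144 against 686.5 and 461.1. The list of 25 hypertrophy and fetal genes to which they belong had 9 lower without overlap and 2 higher as deposited (median -0.36), and 6 and 2 after the GC correction (median -0.14, and 0.02 without sham SFA-EAA replicate 2). Over all genes 27.6% lay on each side as deposited, and 21.0% were lower and 24.8% higher after the correction. The list members Nes, the intermediate filament gene nestin, and Flnc, an actin cross-linker of muscle, were named after their values had been seen. Nes was lower in both versions (-0.68 and -0.41). Flnc was lower as deposited (-0.61), and its difference was small after the correction (-0.09, SE 0.11, limma adjusted p = 0.814). Ankrd23, a titin-associated stress gene, did differ in its values, at 221.0 and 233.9 against 105.6 and 108.7 (log2 fold change -1.08, GC-corrected -0.77, adjusted p = 0.239). Of 14 cardiomyocyte markers the median was -0.24 as deposited and -0.04 after the correction.

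The same diet contrast after TAC, which shares no library with the sham contrast, gives a comparison for these genes. The difference of the 2 diet effects was called by limma in 0 of 16432 genes as deposited (0.0%) and in 0 after the GC correction (0.0%), with 902 genes at an unadjusted p under 0.05 as deposited (5.49%) and 1373 after the correction. Zbtb16 crossed over: after TAC it stood at 382.5 and 368.1 under SFA and at 146.7 and 227.3 under SFA-EAA, a log2 fold change of -1.03 against 1.97 in sham, and the difference did not pass (adjusted p = 0.306, GC-corrected 0.196). Fkbp5 had the same form, at 635.4 and 324.0 against 164.2 and 227.2 after TAC (log2 fold change -1.23 against 1.08 in sham, adjusted p of the difference 0.75). Nr4a1 was opposed in the other sense, at 135.9 and 132.2 against 349.6 and 129.9 after TAC (0.67 against -1.69 in sham, adjusted p of the difference 0.785), with the high value in TAC SFA-EAA replicate 1 alone.

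Several of the genes ranked first in sham hearts were closer to level between the diets after TAC, without the difference passing; they had been chosen on their sham values. Tfdp2 was at 338.7 and 362.4 under SFA and at 378.6 and 387.4 under SFA-EAA after TAC (GC-corrected adjusted p of the difference 0.219), and Foxo3 at 482.9 and 511.8 against 513.0 and 507.7 (0.272). H2-Ab1 after TAC was at 217.5 and 157.0 against 196.8 and 98.1, a log2 fold change of -0.41 against -2.22 in sham (0.259). The collagen-related genes Serpinh1 and Loxl1 and the branched-chain genes Aldh6a1 and Dbt had log2 fold changes of the same sign in both operations. As deposited, Serpinh1 had log2 fold changes of -1.09 in sham and -1.03 after TAC, Loxl1 -1.78 and -1.98, Aldh6a1 0.53 and 0.80, and Dbt 0.51 and 0.59, with adjusted p of the difference from 0.909 to 0.989. GC-corrected, these were -0.73 and -0.76 for Serpinh1, -1.02 and -1.40 for Loxl1, 0.28 and 0.63 for Aldh6a1, and 0.24 and 0.39 for Dbt, with adjusted p of the difference from 0.534 to 0.98. TAC SFA replicate 2 held high atrial values, as did sham SFA replicate 1. In the TAC SFA libraries Myl7 was at 11.8 and 321.9, Myl4 at 27.9 and 629.1, and Loxl1 at 375.5 and 629.1. Loxl1 was at 181.5 and 83.0 in the TAC SFA-EAA libraries. Whether atrial tissue bears on the matrix values after TAC was not tested. As deposited, the fold changes after TAC also ran with GC content (rho -0.59), and the TAC SFA-EAA libraries trended in opposite directions with it (rho 0.49 and -0.78).

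**Figure D5:**
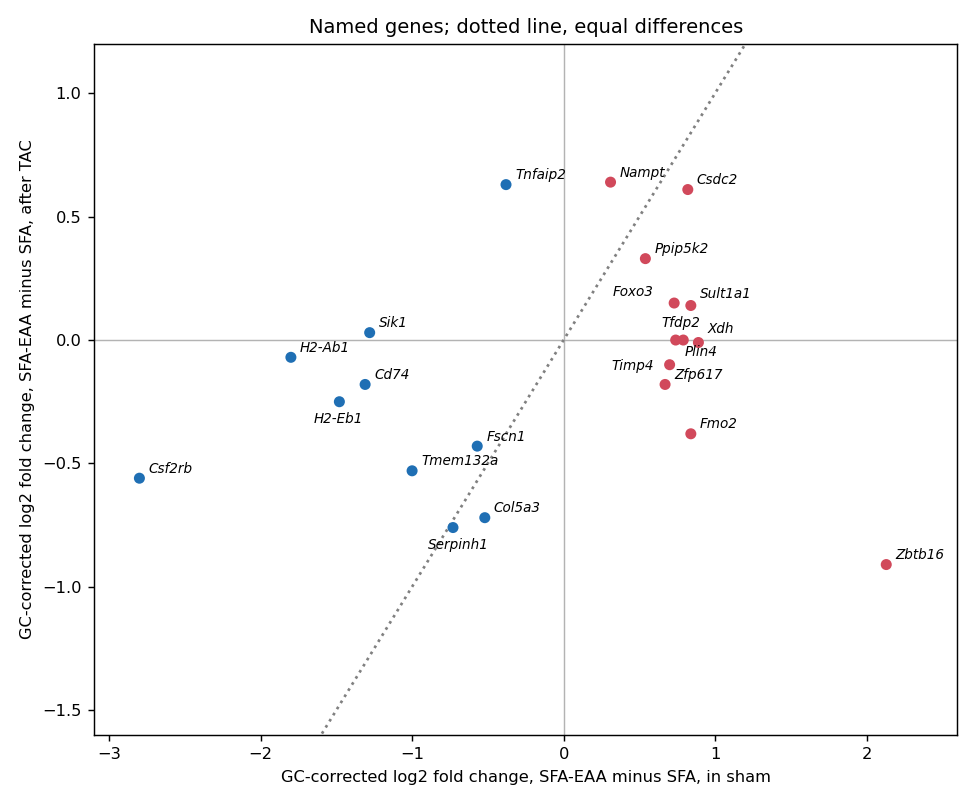
GC-corrected log2 fold change between the diets in sham hearts (horizontal axis) and after TAC (vertical axis) for the 22 genes ranked highest or lowest or passing after the GC and length correction, red where higher and blue where lower in sham. Zbtb16 lies at 2.13 and -0.91, and most other red and blue points are nearer to 0 on the vertical axis than on the horizontal one.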

How the data were processed

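Per the submitters' processing notes, STAR 2.5, edgeR and GRCm38 were used, and per the labels' protocols the libraries came from a stranded polyA kit. The sources used here give neither the counter nor its annotation or use of strand, so overlapping or near-identical genes could exchange reads. The signal per gene that the authors deposited is not whole and gives no depth, so no count test or interval was used. Coordinates are those of the table; 91.5% of 49326 genes matched to GENCODE M21 were identical there, and 29103 of 49671 genes were at 0 throughout. Limma-trend (limma 3.58.1, R 4.3.3) was fitted to log2(value + 1) over all 8 libraries with 4 group means, two-sided, with Benjamini-Hochberg adjustment over 16432 genes and a threshold of 0.05; the pseudocount of 1 damps the fold changes of low genes. The GC correction divides each library by a loess curve (span 0.3) on transcript GC content, known for 99.8% of genes; the length correction adds a second curve. Genes named, predicted models left out, have the 10 smallest p-values per direction, without overlap in both versions, at a sham mean of at least 5, or are up to 4 list members with the smallest p-values or belong to a fixed panel; other list members, and the 2 further genes that passed with length corrected, were added after their values were seen. Members and lists were chosen with earlier results of these data known. The scripts were tested on simulated data. Figures used Python 3.11.15 and matplotlib 3.10.9.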

Additional observations from a re-analysis of the deposited data

How the results depend on the processing

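With 2 libraries per diet and the trend with GC content aligned with diet, the sham comparison cannot separate the diet from composition. The number of genes called for the diet was 0 as deposited, 7 with the GC and length correction, 591 with library weights (6 of the 7 among them), and 0 to 466 when single libraries were left out. It was 0 with the other filters, pseudocount and scalings, with the GC correction, with the 4 sham libraries alone (3813 genes at an unadjusted p under 0.05) and with the replicate number as a block (2022 genes). Libraries of the same number did not deviate together (correlations of -0.32 to 0.06). With 2 libraries per group these correlations cannot show whether the number marks a shared batch or day. The replicate block with the GC correction also gave 0. For the difference between TAC and sham, leaving out single libraries gave 0 to 4 calls, the 4 with the GC correction and without TAC SFA replicate 1. The rank correlation with GC content was -0.01 after the GC correction, with the replicate block or the 4 sham libraries alone too, and -0.05 with length corrected. As deposited it was -0.76 to -0.68 when single libraries were left out, with -0.68 without sham SFA-EAA replicate 1 and -0.70 without sham SFA replicate 2. With the GC correction as well it was -0.01 to -0.00. Of the named genes, 110 were followed through these settings, and 3 of them changed sign with the GC correction. They were Slc7a5 (0.15, 0.15 with the block, 0.14 with sham libraries alone, 0.16 with length), Bcat2 (0.09 in the first 3, 0.05 with length) and Nppa (0.10 in the first 3, 0.01 with length). Per1, which was not among the 110, also changed sign, from -0.43 as deposited to 0.17. With length mt-Nd1 was -0.01, and Nppb was 0.01 when scaled without mitochondrial genes. When single libraries were left out, values as deposited ran from -0.50 to 0.13 for Slc7a5, -0.21 to 0.01 for Bcat2, -0.33 to 0.03 for Nppa, -0.17 to 0.08 for Nppb, -0.01 to 0.29 for Asns, -0.12 to 0.88 for Ucp3 and -0.13 to 0.61 for Dbp. With the GC correction as well, values of the sign opposite to that deposited were 0.14, 0.15, 0.40 and 0.47 for Slc7a5, 0.04, 0.09, 0.14 and 0.19 for Bcat2, 0.06, 0.10, 0.15 and 0.29 for Nppa, 0.01 for Nppb, 0.18 and 0.31 for Myh7, -0.12 and -0.05 for Ppm1k, -0.07 for Asns, 0.10 for Bckdha, 0.02 for Slc3a2 and -0.05 for Pdk4. For reversals outside the GC, length and mitochondrial settings the cause was not tested. The restriction of the GC correction to the sham libraries was chosen after seeing the data.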
